A study of Mus musculus with 2 samples.

Results

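The thermogenic programme is the set of genes through which brown fat burns fuel to make heat. Of its genes, 10 are described here: Ucp1, Cidea, Ppara, Ppargc1a, Ppargc1b, Dio2, Elovl3, Prdm16, Esrrg and Slc27a2. They are part of 54754 features counted in single nuclei from the ascending aorta and arch of the mouse. The 10 genes were chosen by symbol, with earlier results of these data known. All 10 were found in both libraries and all 10 had the 50 unique molecular identifiers (UMIs, counted molecules) over the summed nuclei that the test below required. The tissue came from Wnt1-Cre; Rosa26-mTmG mice of both sexes. Cre is driven by the Wnt1 promoter, active in the neural crest of the embryo, and the reporter gives GFP in cells that had Cre and their descendants and tdTomato in all others. The Female library is a pool of 6 female mice and the Male library a pool of 6 male mice. Each pool was divided into 2 technical splits that the barcodes do not tell apart, both libraries carry the same Cre and reporter alleles, and the age of the mice is not given in the sources used here. With 1 library per sex, sexes were compared without a test. Differences between classes of nuclei were tested over both libraries, so that p-values measure the spread of class differences between these 2 libraries and not between mice.

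Nuclei were classed by UMIs of marker genes. A fat nucleus had at least 3 UMIs of Adipoq, Plin1 and Plin4 together. It was called brown where Pank1, Gpd1 and Adra1a had more UMIs than Cyp2e1, Retn and Trhde, white where the reverse held, and tied where the sums were equal. Other nuclei went to the largest of the sums of Myh11, Acta2 and Lmod1 (smooth muscle), Ptprb, Flt1 and Pecam1 (endothelial) and Pdgfra, Dcn and Scara5 (fibroblast), with at least 3 UMIs. The Female library gave 1279 brown, 400 white, 7683 smooth muscle, 5151 endothelial and 2165 fibroblast nuclei. The Male library gave 921 brown, 656 white, 7201 smooth muscle, 6728 endothelial and 2450 fibroblast nuclei. Another 366 Female and 414 Male fat nuclei were tied. Brown nuclei were the deepest, with medians of 7336 (Female) and 7459 UMIs (Male), against 6452.5 and 6796.5 in white nuclei and 2852 to 3735 in the 3 classes without fat markers. The deposited values are UMI counts, given below as counts per 1000000 UMIs of the class (CPM), with exact 95% intervals that cover counting error only. UMI levels are compared between classes and libraries for 1 gene at a time, since the genes differ in span from 3798 bases (Elovl3) to 606095 bases (Esrrg).

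Genes outside the rule were read as a check of the class names. All 5 brown fat genes read for this (Cox8b, Cox7a1, Acot11, Cpt1b and Kcnk3) were higher in brown than in white nuclei of both libraries. Their sum was 1604 and 1148 CPM in Female and Male brown nuclei, against 585 and 306 CPM in white nuclei. These genes also belong to gene lists compared below, so those lists are not separate from this check. Of the 5 white fat genes, Lep, Cfd and Nnat were lower in brown than in white nuclei of both libraries, Npr3 differed in direction between the libraries, and Agt had 0.13 CPM or less in brown and 0 in white nuclei. Tied fat nuclei went against their name: in 89.3% of Female and 94.7% of Male ones the UMIs of another class's markers at least equalled those of the fat markers, so they are used only as the edge of the classes. The same was true of 199 brown nuclei of the Female and 184 of the Male library, and of 41 and 72 white nuclei. Smooth muscle genes outside the rule (Tagln, Cnn1, Myocd and Des) were all higher in brown nuclei, summing to 333 and 458 CPM in Female and Male brown nuclei, against 179 and 291 CPM in white nuclei and 2262 and 2919 CPM in smooth muscle nuclei. Pericyte and fibroblast lists also summed higher in brown nuclei of both libraries than in white ones. The pericyte sum was 71.3 and 68.8 CPM in Female and Male brown nuclei, against 38.8 and 47.2 CPM in white nuclei, and the fibroblast sum 110.4 and 189 CPM, against 85.8 and 139 CPM. The endothelial and macrophage lists differed in direction between the libraries. The heart muscle list (Myh6, Ttn and Ryr2) summed to 187 and 141 CPM in brown nuclei, against 44.6 and 63.0 CPM in white nuclei, most of it Ryr2. Its genes Myh6 and Ttn had 14.4 and 9.77 CPM in Female brown nuclei, and 0.81 and 0.54 CPM in Male brown nuclei. Their part in the results was not tested, except that each brown to white value below was also computed from fat nuclei whose fat marker sum exceeded every other class's. The libraries shared 4287 barcode sequences, and leaving these out changed no call for the 10 genes.

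Brown fat oxidises fatty acids in mitochondria whose inner membrane is made leaky to protons by UCP1, so that energy leaves as heat. Cold acts through noradrenaline, beta-adrenergic receptors and cyclic AMP, which frees fatty acids and switches on the same genes. Brown fat is known to surround the thoracic aorta of the mouse. The 10 genes fall into those that do the work (Ucp1, Cidea, Elovl3, Slc27a2), the enzyme that makes active thyroid hormone on the spot (Dio2), and regulators of transcription (the nuclear receptors Ppara and Esrrg, the coactivators Ppargc1a and Ppargc1b, and Prdm16).

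The bases before the transcription starts are shown for the 4 genes whose brown to white difference spans the range found here, from none called (Dio2) to the largest (Ucp1 and Slc27a2), with Ppargc1a as the textbook target of cyclic AMP. Each line holds the 250 bases that precede a RefSeq transcript start on GRCm38.p6, 5′ to 3′ in the direction of transcription. Capitals mark matches, on either strand, to the cAMP response element TGACGTCA, to its core TGACG, or to the nuclear receptor core AGGTCA.
Ucp1 (chr8:83290098-83290347, forward strand): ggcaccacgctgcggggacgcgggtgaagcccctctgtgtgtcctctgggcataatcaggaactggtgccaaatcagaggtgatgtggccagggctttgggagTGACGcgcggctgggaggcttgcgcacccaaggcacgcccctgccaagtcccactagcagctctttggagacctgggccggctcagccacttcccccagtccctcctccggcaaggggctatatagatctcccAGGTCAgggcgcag
Dio2 (chr12:90739039-90739288, reverse strand): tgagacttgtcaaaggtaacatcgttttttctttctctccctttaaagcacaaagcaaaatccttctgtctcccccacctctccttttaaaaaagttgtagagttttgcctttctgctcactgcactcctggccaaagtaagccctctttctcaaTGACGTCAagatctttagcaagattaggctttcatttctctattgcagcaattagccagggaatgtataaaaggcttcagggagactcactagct
Ppargc1a (chr5:51567726-51567975, reverse strand): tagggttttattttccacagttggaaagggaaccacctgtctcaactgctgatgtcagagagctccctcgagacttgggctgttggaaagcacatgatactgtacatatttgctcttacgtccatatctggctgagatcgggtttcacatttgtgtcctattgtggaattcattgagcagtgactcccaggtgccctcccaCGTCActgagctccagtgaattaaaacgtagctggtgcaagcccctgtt
Slc27a2 (chr2:126552774-126553023, forward strand): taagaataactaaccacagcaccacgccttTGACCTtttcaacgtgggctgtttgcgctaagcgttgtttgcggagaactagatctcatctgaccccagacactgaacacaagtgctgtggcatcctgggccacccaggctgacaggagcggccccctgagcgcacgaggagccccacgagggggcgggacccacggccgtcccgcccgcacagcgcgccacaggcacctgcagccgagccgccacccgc
Dio2 holds the whole palindrome TGACGTCA, its first base 95 bases before the start; 508 of 32851 windows of this length (1.55%) hold it. In it both strands read TGACG, so the 2 motifs overlap there. The core TGACG is 147 bases before the start in Ucp1, 49 in Ppargc1a and 222 in Ppara, and 17.8% of all windows hold it. The core AGGTCA is 14 bases before the start in Ucp1 and 220 in Slc27a2, and 14.0% of all windows hold it. A direct repeat of AGGTCA with 1 base between the copies, and the longer TCAAGGTCA, were searched on both strands and are in none of the 10 windows that RefSeq gave for 7 of the genes (0.0335% and 0.387% of all windows). Windows of Esrrg, which has 4, and of Prdm16 hold none of the motifs searched. These are matches of letters only. The RefSeq starts differ in part from the gene positions given below. The windows of Slc27a2 and Ppara lie inside the annotated gene, and the Dio2 window lies some way before the annotated gene begins.

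Ucp1, the proton channel that defines the brown fat cell, set brown nuclei apart from every other class. Its level was 230.5 CPM (221 to 239.9) in Female and 162 CPM (153 to 171) in Male brown nuclei, against 7.43 and 3.58 CPM in white nuclei, where 22 and 17 UMIs were counted in all. The brown level was above the white level in both libraries with no overlap of the intervals. The fitted log2 fold change of brown over white was 5.21 ± 0.16 (SE), or 36.9-fold, with an adjusted p of 5.54e-07 (edgeR quasi-likelihood test, Benjamini-Hochberg over 19265 genes). By its p-value it ranked 1 among all genes tested. Smooth muscle nuclei had 1.84 and 1.40 CPM, endothelial 2.66 and 1.89 CPM and fibroblast 2.18 and 1.22 CPM, all between 0.752% and 1.17% of the brown level of the same library. Ucp1 lies at chr8:83290352-83298452 on the forward strand (GRCm38), with no overlapping gene model.

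Cidea, a lipid droplet protein abundant in brown fat, was also higher in brown nuclei, but white nuclei held it too. Brown nuclei had 1389.8 CPM in the Female and 1258 CPM in the Male library, against 469.8 and 353 CPM in white nuclei, a log2 fold change of 1.69 ± 0.16 (adjusted p = 0.000174). White nuclei thus stood at 33.8% and 28.1% of the brown level, while the 3 classes without fat markers stood between 0.492% and 1.01% of it.

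Slc27a2, which carries very long-chain fatty acids across membranes and activates them, followed Ucp1. It had 107 CPM in Female and 139 CPM in Male brown nuclei, against 6.08 and 4.42 CPM in white nuclei (18 and 21 UMIs). The fitted log2 fold change was 4.60 ± 0.18 (adjusted p = 2.37e-06), and the gene ranked 2 by its p-value. Smooth muscle, endothelial and fibroblast nuclei of both libraries stood between 0.286% and 0.429% of the brown level, from 4 to 11 UMIs each.

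Elovl3, which lengthens saturated fatty acids and rises in brown fat in the cold, was rare. It had 13.9 CPM (11.7 to 16.3) in Female brown nuclei and 5.64 CPM (4.07 to 7.63) in Male brown nuclei, against 3.72 CPM (1.85 to 6.65) and 1.47 CPM (0.59 to 3.04) in white nuclei. Brown was above white within each library, while the Male brown and the Female white intervals overlapped. The log2 fold change was 1.91 ± 0.43 (adjusted p = 0.0161), and with no library block the adjusted p was 0.126. It had 6, 1 and 2 UMIs in Female smooth muscle, endothelial and fibroblast nuclei, and 0, 0 and 1 UMIs in the Male ones, where the exact intervals reach 0.148 CPM in smooth muscle and 0.155 CPM in endothelial nuclei and 3 counts would be 0.120 and 0.126 CPM. Elovl3 at chr19:46131897-46135694 overlaps Pitx3 on the other strand, and the strand setting of the counting is not given in the sources used here, so its counts are uncertain.

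Dio2, the deiodinase that turns thyroxine into active T3, did not pass the test between brown and white nuclei. Brown nuclei had 31.2 and 41.4 CPM in the Female and Male libraries, against 24.3 and 31.2 CPM in white nuclei. The Female intervals overlapped (27.8 to 34.8 in brown, 19.0 to 30.6 in white) and the Male ones just missed (36.9 to 46.3 against 26.4 to 36.6). The log2 fold change was 0.38 ± 0.26 (adjusted p = 0.426). Dio2 was also the gene with the most signal in fibroblast nuclei relative to brown, 22.2 and 16.3 CPM or 71.2% and 39.5% of the brown level, and brown was still above fibroblast nuclei by a log2 fold change of 0.87 ± 0.25 (adjusted p = 0.0126).

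**Figure D1:**
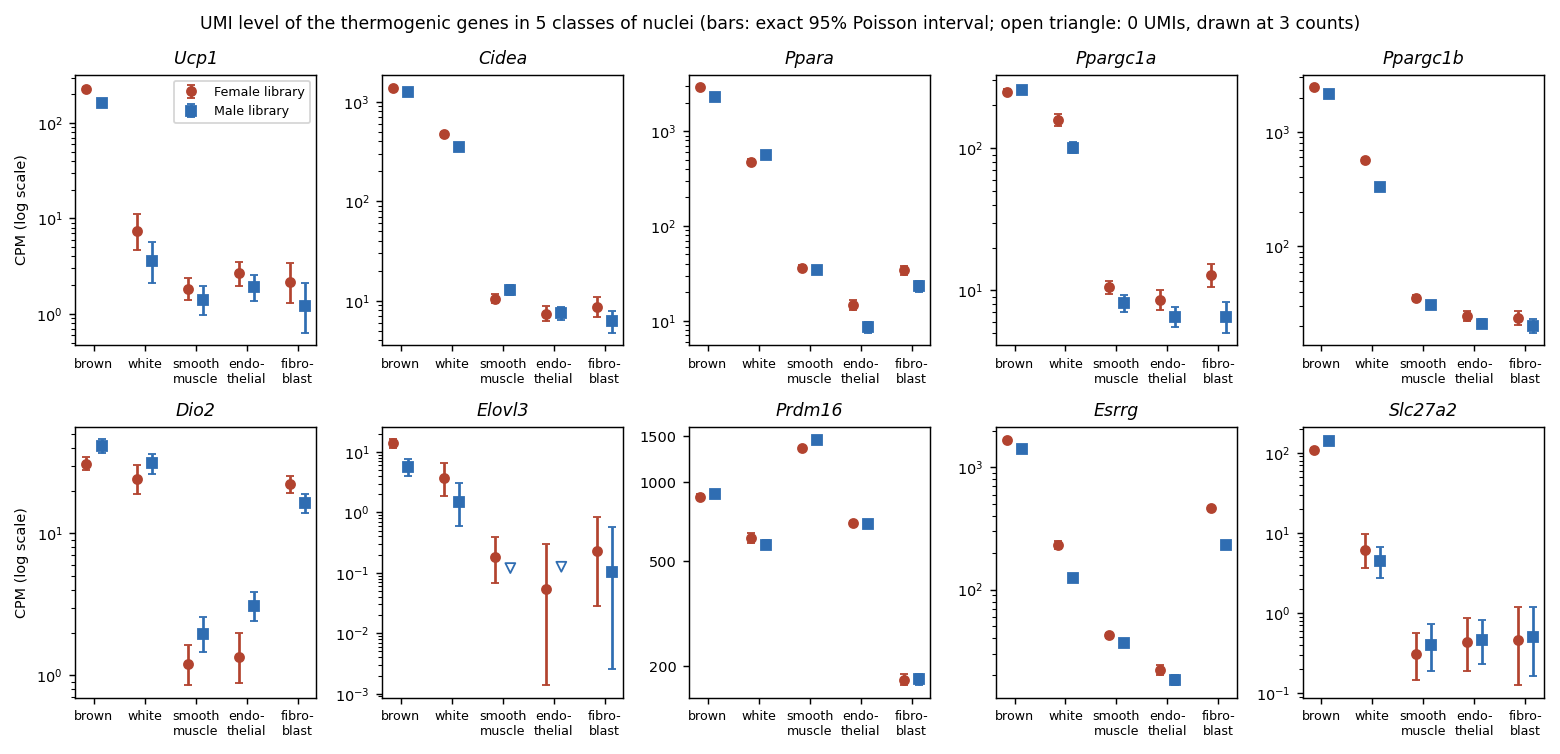
Level of each of the 10 genes in CPM (log axis) in 5 classes of nuclei, circles for the Female and squares for the Male library, with exact 95% Poisson intervals; open triangles stand for 0 UMIs and are drawn at 3 counts. Ucp1 and Slc27a2 drop sharply outside brown nuclei, Dio2 and Esrrg keep a level in fibroblast nuclei, and Prdm16 is highest in smooth muscle nuclei.

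Ppara, the nuclear receptor that turns on fatty acid oxidation genes, had 2906 CPM in Female and 2308 CPM in Male brown nuclei, against 478 and 554 CPM in white nuclei. The log2 fold change was 2.31 ± 0.19 (adjusted p = 8.65e-05). Smooth muscle and fibroblast nuclei lay at 1.0% to 1.5% of the brown level, and endothelial nuclei at 0.502% and 0.370%.

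Esrrg, an orphan nuclear receptor that acts on mitochondrial genes, showed a wider gap between the fat classes. Its level was 1678 and 1427 CPM in Female and Male brown nuclei, against 232 and 125 CPM in white nuclei, a log2 fold change of 3.17 ± 0.21 (adjusted p = 2.60e-05). Fibroblast nuclei had more of it than white nuclei in both libraries, 464 and 234 CPM, and brown exceeded fibroblast nuclei by a log2 fold change of 2.20 ± 0.20 (adjusted p = 6.22e-06). Smooth muscle and endothelial nuclei had 18.2 to 42.2 CPM.

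The 2 PGC-1 coactivators, which bind nuclear receptors and drive mitochondrial biogenesis, were both called higher in brown than in white nuclei. Ppargc1b had 2454 CPM in Female and 2129 CPM in Male brown nuclei, against 567 and 328 CPM in white nuclei, a log2 fold change of 2.38 ± 0.16 (adjusted p = 2.60e-05). Ppargc1a, the cold-inducible member of the pair, had 249 and 258 CPM in brown nuclei, against 158 and 101 CPM in white nuclei. Its log2 fold change of 1.01 ± 0.17 passed the test (adjusted p = 0.00371) but not with no library block (adjusted p = 0.0669). Within the libraries the log2 ratio of Ppargc1a was 0.66 (Female) and 1.35 (Male). Whether the 2 genes differ from each other in this contrast was not tested.

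Prdm16, the zinc finger protein that holds precursor cells to the brown fate, did not follow the others. Brown nuclei had 881 CPM in the Female and 903 CPM in the Male library, against 614 and 580.2 CPM in white nuclei, which is a log2 fold change of 0.57 ± 0.10 (adjusted p = 0.00369). Smooth muscle nuclei had more, 1351 and 1446 CPM, and the fold change of brown over smooth muscle was -0.82 ± 0.10 (adjusted p = 4.50e-05). Scaling by total UMIs alone moved the median of all genes in that comparison from -0.10 to 0.07 and Prdm16 to -0.65 (adjusted p = 0.000257), still lower in brown. Endothelial nuclei had 700.2 and 695 CPM, and the difference from them, 0.27 ± 0.10, passed the test (adjusted p = 0.0325) but lost the call under 6 of the alternatives tried. Fibroblast nuclei were lowest, at 178 CPM in each library, with a log2 fold change of 2.31 ± 0.10 (adjusted p = 5.44e-08). The order of levels was therefore smooth muscle, brown, endothelial, white and fibroblast in both libraries. The 320749-base span of Prdm16 (chr4:154316125-154636873, reverse strand) overlaps B230104I21Rik on the other strand.

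Between brown and white nuclei, 9 of the 10 genes were called higher in brown at an adjusted p under 0.05, 0 were called lower, also at an unadjusted p under 0.05 and by DESeq2, and Dio2 was not called. The calls of edgeR covered 8.08% of all genes tested as higher and 5.37% as lower in brown, 1556 and 1034 of 19265. The median log2 fold change of the 10 genes was 2.11, against 0.07 over all genes tested. The rule's marker genes were left out of the test, but they were read in the same nuclei as the 10 genes. Since the 10 genes were chosen with earlier results of these data known, their count beside that of all genes is a description. With fat nuclei whose fat marker sum exceeded every other class's, the same 9 genes were called, at 5.30 for Ucp1, 4.72 for Slc27a2, 1.13 for Ppargc1a, 0.60 for Prdm16 and 2.20 for Elovl3, and Dio2 was not (0.42, adjusted p = 0.367).

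**Figure D2:**
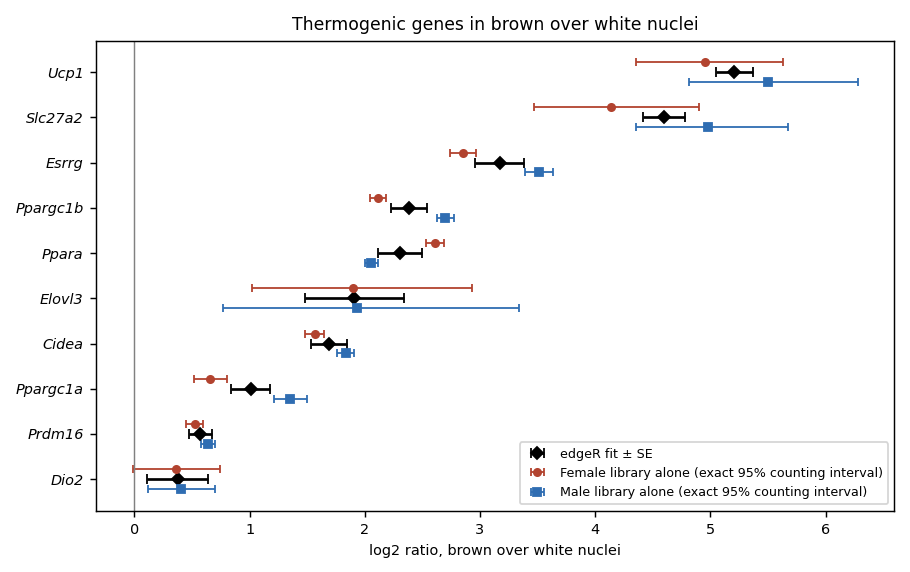
Log2 ratio of brown over white nuclei for each gene, with the edgeR fold change and its SE as black diamonds and the CPM ratio within each library, with its exact 95% counting interval, as a circle (Female) and a square (Male). All points lie above 0, from Ucp1 at 5.21 down to Dio2 at 0.38, and Ppara is the gene with the larger ratio in the Female library.

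Positions of the other genes are on GRCm38. The annotation puts Cidea at chr18:67343604-67367785 (forward strand) and Slc27a2 at chr2:126552407-126588243 (forward strand). Dio2 is at chr12:90724552-90738438 (reverse strand). The regulators are Ppara at chr15:85734983-85802819 (forward strand), Esrrg at chr1:187608791-188214885 (forward strand), Ppargc1a at chr5:51454250-51567726 (reverse strand) and Ppargc1b at chr18:61298136-61400431 (reverse strand). Cidea overlaps B430212C06Rik on the other strand, Ppargc1b holds Mir378a on its own strand, and all of these but Ppara overlap at least 1 other gene model, none of them protein coding, so that a part of their counts is uncertain. Counts are per gene, over exons and possibly introns; exons make up 20.2% of the span of Ucp1.

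Against the other classes nearly all the genes were far higher in brown nuclei. Over smooth muscle nuclei 9 of 10 were called higher, by log2 fold changes of 4.36 (Dio2) to 8.25 (Slc27a2), and Prdm16 was called lower; 28.2% of all genes were called higher and 31.6% lower in that comparison. Over endothelial nuclei all 10 were called higher, against 30.9% of all genes, from 0.27 (Prdm16) and 3.92 (Dio2) to 7.99 (Slc27a2), with Elovl3 left out of this range. The fitted folds of Elovl3 over these classes rest on 1 to 6 UMIs there and depend on the prior count. Over fibroblast nuclei all 10 were called higher, against 30.0% of all genes, with Dio2, Esrrg and Prdm16 the lowest at 0.87, 2.20 and 2.31 and the other genes but Elovl3 between 4.76 and 7.94. Shared brown sums enter all these contrasts. Brown fat RNA can leak into other droplets, and genes of fat cells were read beside the 10 genes: Pparg stood at 0.514% to 1.10% of its brown level in smooth muscle, endothelial and fibroblast nuclei, Cidec at 0.598% to 0.777%, Plin5 at 0.52% to 0.998%, Lipe at 1.37% to 2.49% and Lpl at 0.931% to 5.25%. Of the 10 genes, Ucp1, Cidea, Ppara, Ppargc1b and Slc27a2 stayed at or under 1.5% of their brown level in these classes. Ppargc1a, at 2.51% to 5.12%, lay within the range of these fat genes, Dio2 in smooth muscle and endothelial nuclei stood at 3.83% to 7.42%, and Dio2 and Esrrg in fibroblast nuclei, and Prdm16 in all 3 classes, lay above that range. Free RNA and expression in these cells cannot be told apart for the low values.

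Fat nuclei were also read along the rule's own axis, the UMIs of the brown markers minus those of the white markers. The members of each bin were chosen by these sums, so the values are a description. Where the white markers led by 11 or more, Ucp1 was 4.31 and 4.32 CPM in Female and Male nuclei. Where the brown markers led by 1 to 3 it was 4.71 and 18.6 CPM, by 4 to 10 89.8 and 68.3 CPM, by 11 to 20 134 and 135 CPM, and by 21 or more 317 and 218 CPM. Cidea, Ppara, Ppargc1a, Ppargc1b, Esrrg and Slc27a2 were higher in each next bin from 1 to 3 up to 21 or more in both libraries, but not over the whole axis. In both libraries Cidea, Ppara, Ppargc1a and Ppargc1b were higher in every bin led by white markers than in the 1 to 3 bin, and all 4 were lowest in tied nuclei. Cidea, for example, was 427 and 329 CPM where the white markers led by 11 or more, 64.2 and 26.2 CPM in tied nuclei and 222 CPM in each library at 1 to 3. Prdm16 had no such slope, with 1144 and 1093 CPM at 1 to 3 and 835 and 927 CPM at 21 or more. At 1 to 3 another class's markers at least equalled the fat markers in 58.4% of Female and 64.0% of Male nuclei. Dio2 had no steady slope either, at 22.4 and 29.9 CPM where the white markers led by 11 or more, 34.4 and 27.5 CPM where they led by 4 to 10, 19.9 and 50.6 CPM where the brown markers led by 4 to 10, and 36.7 and 43.7 CPM where these led by 21 or more.

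At the edges of the rule, Ucp1 had 41.8 CPM in the 96 Female and 25.6 CPM in the 74 Male brown nuclei with exactly 3 fat marker UMIs. It had 15.2 CPM in 201 Female and 13.6 CPM in 156 Male nuclei that had 2 fat marker UMIs and more brown than white marker UMIs. Brown nuclei with a difference of 1 held 3.12 and 1.84 CPM of Ucp1, on 2 and 1 UMIs. White nuclei with a difference of -1 held 7.69 and 0 CPM, on 2 and 0 UMIs, and tied nuclei 6.60 and 0.86 CPM, on 15 and 2 UMIs. These counts are too low to order the groups at this edge.

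**Figure D3:**
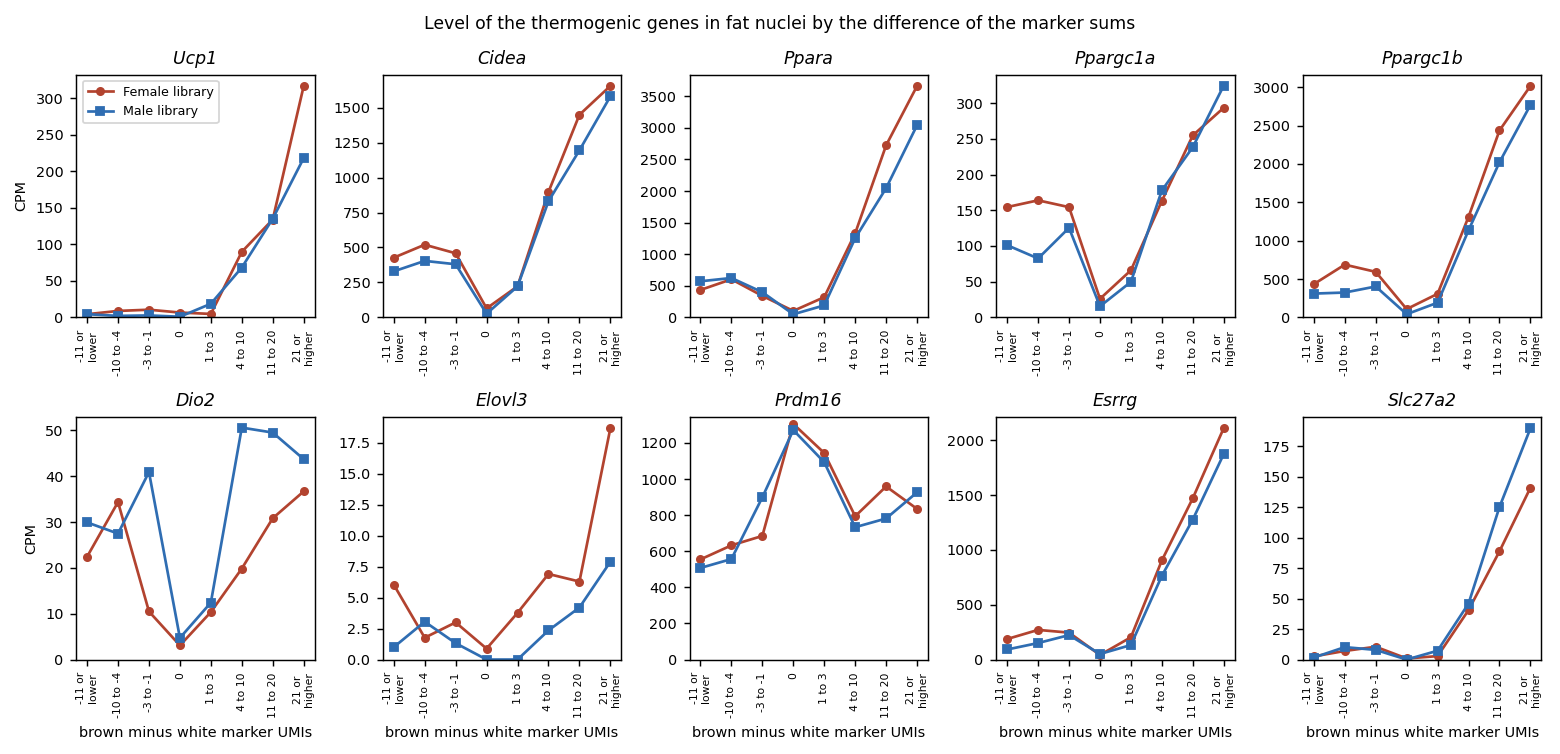
CPM of each gene (linear axis from 0) in fat nuclei grouped by brown minus white marker UMIs, low to high, with circles for the Female and squares for the Male library. Ucp1 is 317 and 218 CPM in the highest bin and 4.31 and 4.32 CPM in the lowest, whereas Prdm16 peaks in tied nuclei at 1306 and 1272 CPM.

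Counted by nucleus, Ucp1 had at least 1 UMI in 605 of 1279 Female brown nuclei (47.3%, 95% exact interval 44.5 to 50.1) and 379 of 921 Male ones (41.2%, 38.0 to 44.4), against 4.25% and 2.29% of white nuclei. Endothelial nuclei, which should lack it, gave 0.796% and 0.52% at median depths of 3170 and 3074 UMIs. Since depth differs between classes, each nucleus was also thinned to 1000 UMIs. Ucp1 was then found in 17.4% of Female and 13.3% of Male brown nuclei, against 0.754% and 0.311% of white nuclei. Endothelial nuclei gave 0.221% and 0.174%. The thinned white shares rest on 3 and 2 nuclei, and their intervals overlapped the endothelial ones. The summed level of Female white nuclei, 7.43 CPM (4.66 to 11.2), lay above the endothelial 2.66 CPM (1.97 to 3.52). In the Male library these intervals overlapped, at 3.58 CPM (2.09 to 5.73) and 1.89 CPM (1.38 to 2.53). Nuclei left without a class had 8.71 CPM in the Female and 4.12 CPM in the Male library, and tied nuclei 6.60 and 0.86 CPM. After thinning, Ppargc1b was found in 77.4% and 72.5% of brown nuclei, Ppara in 73.7% and 70.1%, Esrrg in 65.8% and 58.8% and Cidea in 64.7% and 60.4%. In white nuclei these shares were 36.2% and 26.6%, 28.1% and 32.6%, 12.8% and 6.99%, and 31.4% and 23.1%. Prdm16 was in 55.3% and 57.4% of brown nuclei, against 43.5% and 41.8% of white and 66.8% and 69.0% of smooth muscle nuclei. Dio2 was in 3.61% and 3.71% of brown nuclei, and Elovl3 in 1.26% and 0.546%.

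Several of the genes were often found in the same brown nucleus. At 1000 UMIs a brown nucleus showed a median of 4 of the 10 genes in each library, and at least 5 of them in 41.9% of Female and 36.1% of Male brown nuclei, against 2.76% and 0.466% of white nuclei. The same threshold was met by 0.0408% and 0.0156% of smooth muscle nuclei. Whether these counts exceed what the shares of the single genes would give by themselves was not tested. To see how the genes go with Ucp1, brown nuclei were thinned to 3000 UMIs, which left out 77 Female and 96 Male nuclei, and divided into those with and without a Ucp1 UMI, 401 and 801 of the Female library, 211 and 614 of the Male. Cidea was 1675 CPM with and 1279.7 CPM without Ucp1 in the Female library, and 1690.4 CPM with and 1138 CPM without it in the Male library. Ppara, Ppargc1a, Ppargc1b, Esrrg and Slc27a2 were also higher in nuclei with Ucp1 in both libraries, by the example of Esrrg at 2022 and 1484 CPM in the Female and 1788 and 1319 CPM in the Male library. Prdm16 was 827 CPM with and 888 CPM without Ucp1 in the Female library, and 904 and 889.8 CPM in the Male. Dio2 was 41.6 and 22.9 CPM in the Female library but 34.8 and 38.0 CPM in the Male. Nuclei are not replicates, so these differences carry no test. The brown class included nuclei in which another class's markers at least equalled the fat markers, 199 Female and 184 Male ones before thinning. Brown nuclei whose brown markers led by 1 to 3 lay below the class level in both Ucp1 and Cidea. Ucp1 was 4.71 and 18.6 CPM there in the Female and Male libraries, and Cidea 222 CPM in each. Whether the differences between nuclei with and without Ucp1 hold without such nuclei was not tested.

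Between the sexes, the levels in brown nuclei differed moderately, and the 2 genes with the largest brown to white difference did not go the same way. Ucp1 was 230.5 CPM in Female and 162 CPM in Male brown nuclei, a ratio of 1.42 (1.33 to 1.53). Slc27a2 was 107 and 139 CPM, a ratio of 0.77 (0.706 to 0.839). Elovl3, on 142 and 42 UMIs, had the ratio farthest from 1, 2.46 (1.73 to 3.55). Ppara was at 1.26 (1.24 to 1.28), Esrrg at 1.18 (1.15 to 1.21), Ppargc1b at 1.15 (1.13 to 1.18) and Cidea at 1.11 (1.08 to 1.13). Dio2 was lower in Female brown nuclei, at 0.753 (0.642 to 0.883). The intervals of Prdm16, 0.976 (0.946 to 1.01), and Ppargc1a, 0.964 (0.909 to 1.02), held 1. Of the 10 genes, 1 (Elovl3) was at least 2-fold apart, as were 4.32% of all genes with 50 UMIs or more in brown nuclei.

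In white nuclei the ratios were larger for several regulators. Esrrg was 232 CPM in Female and 125 CPM in Male white nuclei, a ratio of 1.86 (1.66 to 2.08), Ppargc1b had a ratio of 1.73 (1.61 to 1.85), Ppargc1a 1.56 (1.37 to 1.78) and Cidea 1.33 (1.24 to 1.43). Ppara went the other way, at 478 and 554 CPM and a ratio of 0.862 (0.807 to 0.919). Prdm16, at 1.06 (0.997 to 1.12), Dio2, at 0.78 (0.58 to 1.04), and Slc27a2, at 1.37 (0.69 to 2.71), had intervals that held 1. None of the 7 genes with 50 UMIs or more was 2-fold apart, against 5.16% of all such genes. Ucp1 and Elovl3, below that count, had ratios of 2.07 (1.05 to 4.16) on 22 and 17 UMIs and 2.52 (0.892 to 7.66) on 11 and 7 UMIs. Esrrg was also higher in Female than in Male fibroblast nuclei, by 1.98 (1.88 to 2.09). In endothelial nuclei Dio2 was lower in the Female library, at 1.36 and 3.07 CPM and a ratio of 0.442. Between 1 library per sex, pools, sequencing depth and sex cannot be told apart. The share of called doublets was 10.6% in Female and 16.5% in Male brown nuclei, and 8.75% and 14.0% in white nuclei.

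**Figure D4:**
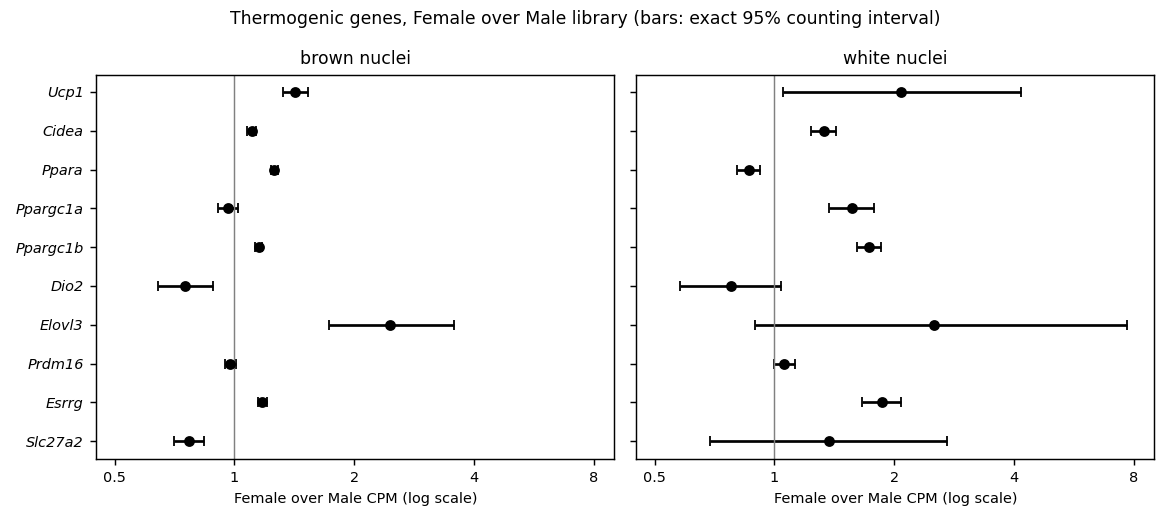
Ratio of Female over Male CPM (log axis) for each gene in brown nuclei (left) and white nuclei (right), with exact 95% counting intervals. In brown nuclei Ucp1 and Elovl3 lie above 1 at 1.42 and 2.46 and Slc27a2 and Dio2 below it at 0.77 and 0.753, and Ppara lies at 1.26 in brown and 0.862 in white nuclei.

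Brown nuclei were also divided by reporter. Brown nuclei with GFP UMIs alone numbered 273 (Female) and 223 (Male), and those with tdTomato UMIs alone 246 and 283. Ucp1 was 243 CPM in GFP and 233 CPM in tdTomato nuclei of the Female library, and 156 and 168 CPM in the Male, with overlapping intervals in each. Ppara was 3220.4 and 2539 CPM in the Female library, and 2327 and 2438 CPM in the Male. Esrrg was 1765 CPM in GFP and 1534 CPM in tdTomato nuclei of the Female library, but 1321 and 1425 CPM in the Male. The intervals of GFP and tdTomato nuclei were apart for Esrrg in both libraries, in opposite directions, and for Ppara and Ppargc1a (277 and 219 CPM) in the Female library, and overlapped for the others. For Esrrg in the Male library they only just missed, with the GFP interval ending at 1374.8 CPM and the tdTomato one starting at 1376.3 CPM. Dio2 was higher in GFP nuclei of both libraries, at 31.6 and 19.8 CPM in the Female and 45.9 and 38.4 CPM in the Male, as was Slc27a2, while Ppargc1b was lower in both, all within overlapping intervals. Neither reporter was seen in 599 Female and 292 Male brown nuclei. Another 161 Female and 123 Male brown nuclei held UMIs of both reporters, which free RNA or doublets can give, so the reporter call of single nuclei is uncertain. What gave both reporters was not tested. These nuclei were the deepest, with medians of 9317 and 9530 UMIs. Cidea (1140 and 879 CPM), Ppara, Ppargc1b, Prdm16 and Elovl3 (on 13 and 2 UMIs) were lower in them than in nuclei with 1 reporter in both libraries. Some of the intervals overlapped. For Ppara in the Female library they were 2424 to 2577 CPM with both reporters and 2471 to 2609 CPM in tdTomato nuclei. Ucp1 in nuclei with both reporters differed in direction between the libraries. In the Female library it was 268 CPM there, above the 243 and 233 CPM of GFP and tdTomato nuclei. In the Male library it was 126 CPM, below 156 and 168 CPM.

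Genes that belong to the same pathways were compared between brown and white nuclei, from lists that were chosen with earlier results of these data known. In fatty acid oxidation, 16 of 26 genes tested were called higher in brown and 2 lower, with a median log2 fold change of 0.88, against 0.07 over all genes tested. Of all genes tested, 8.08% were called higher and 5.37% lower in brown. Acot11 and Cpt1b, used above to check the class names, are among the 16. Fabp3, a fatty acid carrier of oxidative tissues, had 60.3 and 55.9 CPM in Female and Male brown nuclei, against 2.36 and 1.90 CPM in white nuclei, a log2 fold change of 4.79 ± 0.29 (adjusted p = 2.39e-05). Cpt1b, the muscle and brown fat form of the enzyme that admits fatty acids to mitochondria, changed by 3.09 ± 0.70 (adjusted p = 0.0199). Acsl5, which activates fatty acids, changed by 2.53 ± 0.40 (adjusted p = 0.00262), and Pdk4, which restrains glucose oxidation, by 2.46 ± 0.43 (adjusted p = 0.00399). Ehhadh (-0.48), among the genes called lower, acts in peroxisomes and was named after its values were seen. With fat nuclei whose fat marker sum exceeded every other class's, 16 were called higher and 0 lower.

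In the arm from noradrenaline to cyclic AMP, of 20 genes tested, 9 were called higher in brown, 1 lower, with a median of 0.55. That is 45% higher and 5% lower, against 8.08% and 5.37% of all genes tested. Gnas, the G protein subunit that stimulates adenylyl cyclase, had 808 and 578 CPM in Female and Male brown nuclei, against 254 and 249 CPM in white nuclei, a log2 fold change of 1.44 ± 0.13 (adjusted p = 0.00016). Akap1, which anchors protein kinase A at mitochondria, changed by 1.34 ± 0.12 (adjusted p = 0.000111), and Pde4d, which breaks down cyclic AMP, by 1.07 ± 0.10 (adjusted p = 0.00015). The 1 gene called lower was Adrb3, the main adrenergic receptor of mouse fat cells, at 344 and 365 CPM in brown nuclei, against 595 and 476 CPM in white nuclei (log2 fold change -0.60 ± 0.16, adjusted p = 0.0363); it was named after its values were seen. With fat nuclei whose fat marker sum exceeded every other class's, Adrb3 was not called (-0.51, adjusted p = 0.073), and Adcy5, an adenylyl cyclase, was called lower instead (-1.78, adjusted p = 0.00036, against -0.25 and no call above). Adcy5, also named after its values were seen, had 1263 CPM in smooth muscle nuclei, against 149.8 and 208 CPM in Female and Male brown nuclei.

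Other regulators of brown fat did not move as one. Of 27 tested, 4 were called higher and 6 lower, with a median of 0.03. That is 14.8% higher and 22.2% lower, against 8.08% and 5.37% of all genes tested. Sirt3, a mitochondrial deacetylase, rose by 1.24 ± 0.13 (adjusted p = 0.00028), Gabpa, a subunit of nuclear respiratory factor NRF-2, by 1.17 ± 0.16 (adjusted p = 0.00145), and Cebpb, a partner of PRDM16, by 1.07 ± 0.21 (adjusted p = 0.00829). Nrip1, a corepressor known to restrain thermogenic genes, fell by 1.47 on the log2 scale (± 0.18, adjusted p = 0.000762), to 194 and 289.7 CPM in Female and Male brown nuclei, against 535 and 799 CPM in white nuclei. With fat nuclei whose fat marker sum exceeded every other class's, 4 were called higher and 3 lower.

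Paralogues of the 10 genes went both ways. Of 20 tested, 3 were called higher and 4 lower, with a median of 0.04, while DESeq2 called 1 higher and 5 lower. The edgeR calls are 15% higher and 20% lower, against 8.08% and 5.37% of all genes tested. Slc27a5 had 19 UMIs in brown and 0 in white nuclei over both libraries, and its call was lost with fat nuclei whose fat marker sum exceeded every other class's (adjusted p = 0.0744). Cideb had 56 UMIs in brown and 1 in white nuclei, a ratio of 24.4 with a counting interval of 4.21 to 981. Slc27a1, another fatty acid transporter, was lower in brown nuclei, at 362 and 444 CPM, against 1324 and 1312 CPM in white nuclei (log2 fold change -1.72 ± 0.11, adjusted p = 2.39e-05), and Elovl5 was lower too (-1.24 ± 0.28, adjusted p = 0.0157). Among paralogues named after their values were seen, Cidec was lower in brown nuclei (-1.05 ± 0.12, adjusted p = 0.000536), while Ucp3, with 229.9 and 175 CPM in brown and 201 and 148 CPM in white nuclei, was not called (0.21 ± 0.13, adjusted p = 0.351).

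Of 20 further marker genes of brown and beige fat, 12 were called higher in brown nuclei and 0 lower, with a median of 1.26. That is 60% higher and 0% lower, against 8.08% and 5.37% of all genes tested. Cox8b, Cox7a1 and Kcnk3, used above to check the class names, are among the 12. At an unadjusted p under 0.05, edgeR had 1 gene lower, and DESeq2 called 12 higher and 1 lower. S100b, a calcium-binding protein that brown fat cells release to draw nerve fibres, changed by 4.09 ± 0.41 (adjusted p = 0.000263), Cpn2 by 3.75 ± 0.63 (adjusted p = 0.00463), Cox7a1, a respiratory chain subunit, by 2.93 ± 0.30 (adjusted p = 0.000263), and Slc29a1, a nucleoside transporter, by 2.18 ± 0.28 (adjusted p = 0.000972). Of 9 creatine and calcium cycling genes tested, 3 were called higher (33.3%, against 8.08% of all genes tested) and 0 lower. The 3 were Ryr2, the calcium release channel (1.5 ± 0.16, adjusted p = 0.000367), the creatine transporter Slc6a8 (0.82 ± 0.20, adjusted p = 0.0236) and the calcium pump Atp2a2 (0.56 ± 0.10, adjusted p = 0.00517). The creatine kinase Ckb was not called (0.32 ± 0.24, adjusted p = 0.457). Ryr2 had 163 and 139 CPM in Female and Male brown nuclei, against 738 and 739.6 CPM in smooth muscle nuclei. With fat nuclei whose fat marker sum exceeded every other class's its fold change was 2.45 (adjusted p = 0.000148). Of 9 genes of thyroid hormone handling and response, 0 were called higher by edgeR or DESeq2, with 0 higher at an unadjusted p under 0.05. Thrsp was the 1 gene called lower (-0.45 ± 0.12, adjusted p = 0.0378), but not with fat nuclei whose fat marker sum exceeded every other class's (-0.36, adjusted p = 0.0942). On 9 genes, 0 higher and 1 lower cannot be told from the shares of all genes tested, 8.08% and 5.37%. The corepressor Ncor1 (-0.25) and the coactivators Ncoa1 (-0.13) and Ncoa2 (-0.17) were not called. The median of that list was 0.15, or -0.13 with Crym, which had 0 UMIs in white nuclei, set at its bound.

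**Figure D5:**
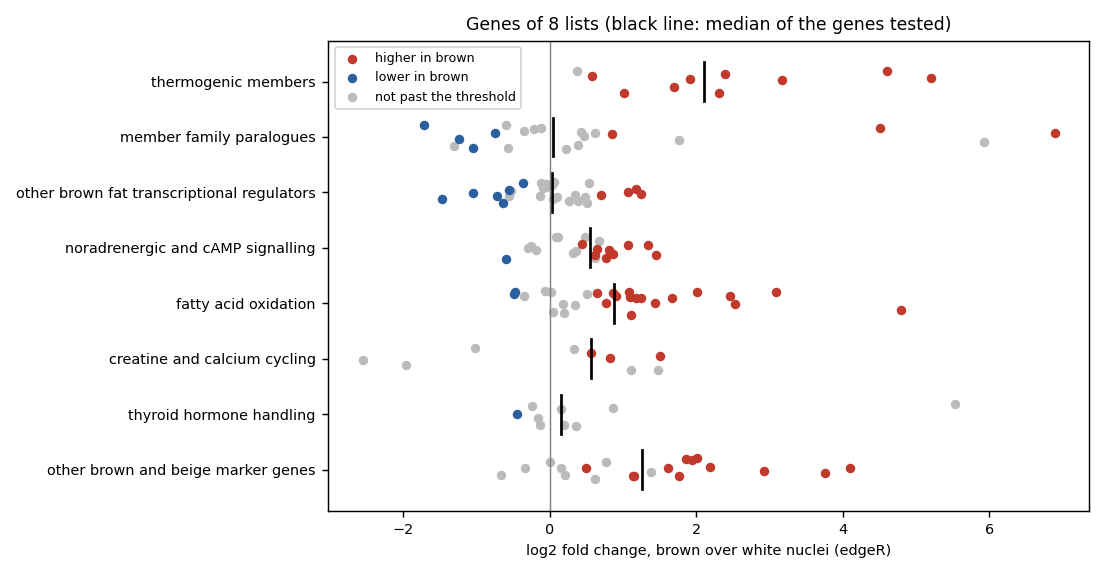
Log2 fold change of brown over white nuclei (edgeR) for the genes of 8 lists, red where called higher in brown, blue where called lower and grey where neither; black lines mark list medians. The medians run from 2.11 for the 10 thermogenic genes over 1.26 for other brown and beige markers and 0.88 for fatty acid oxidation to 0.03 for other brown fat regulators; points of genes with 0 UMIs in white nuclei (Slc27a5, Elovl4 and Crym) depend on the prior count.

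The genes whose levels ran most like each member's were found by the Pearson correlation of log2(CPM + 5) over the 10 sums of 5 classes in 2 libraries, which share libraries and the contrast of fat with other classes. Ucp1 ran with Car14 (r = 0.995) and Kng2 (0.994), with Kng2 at 103 and 70.7 CPM in Female and Male brown nuclei, against 3.38 and 1.26 CPM in white nuclei. Slc27a2 ran with Tufm (0.992) and Sucla2 (0.99). Cidea ran with Ybx2, Mcrip2 and Plbd1, Ppara with Timm23, Abcb8 and Etfrf1, Ppargc1a with Gys2, Chchd10 and Coq6, and Ppargc1b with Akap1 and Slc25a35. Elovl3 ran with Eno1b (0.991), Btf3l4 and Esrrb, Esrrg with Fam228b (0.995), Rbl2 and Sec24a, and Dio2 with L3hypdh (0.99), H6pd and Itih5. Prdm16 ran with Itga1 (0.982), Dlgap1 (0.977) and Synm (0.968), which like it were highest in smooth muscle and lowest in fibroblast nuclei. Among the members themselves Ucp1 was closest to Slc27a2 (0.99), while Prdm16 reached no more than 0.289 with any of them (Ppargc1b) and was negative with Dio2 (-0.38) and Esrrg (-0.26).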

How the data were processed

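Nuclei were isolated from pooled aortas and put through a droplet kit (DG1000), per the labels' protocols. Each deposited value is a UMI count of 1 gene in 1 barcode, not normalized, made by the authors with Cell Ranger 7.0.0 per the file headers; GRCm38, STAR and Seurat 4.4.0 are named in the submitters' processing notes. Annotation, strand setting and use of intronic reads: not given in the sources used here.

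Barcodes with at least 300 genes were kept, 18863 (Female) and 20653 (Male), with 79294181 and 77989549 UMIs in all. UMI counts were summed per class and library into 10 sums, each with the total of its class as depth. Genes with at least 50 UMIs, the 18 marker genes of the class rule left out, were tested with edgeR 4.0.16 (quasi-likelihood, TMM scaling, class and library as terms, all 10 sums sharing 1 estimate of the spread, R 4.3.3). Calls are at a Benjamini-Hochberg adjusted p under 0.05. The test was tested on simulated data. Sexes were compared by ratios with exact intervals, without a test. Thinning, correlations and figures used Python 3.11.15. Doublets were called but kept; leaving them out is an alternative, as are DESeq2 1.42.0, other scalings, minimum counts and class thresholds.

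Members and gene lists were chosen with earlier results of these data known. The genes named are the 10 members, up to 4 genes of each list (the largest absolute fold changes among those called, then the most abundant others), the 3 genes most correlated with each member, and those said to be named after their values were seen; some genes that this rule names are not reported here.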

Additional observations from a re-analysis of the deposited data

Results flagged for a closer look

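Ppara was the 1 gene of the 10 whose Female to Male ratio lay on opposite sides of 1 in brown and white nuclei with neither counting interval holding 1: 1.26 in brown nuclei and 0.862 in white nuclei. The difference was not tested, since each sex is 1 library.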

How the results depend on the processing

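No paired analysis was possible because each sex is 1 library, so no samples pair between the sexes. Between classes, which share libraries, the library term of the test is the pairing, and with no library block the calls of Ppargc1a (adjusted p = 0.0669) and Elovl3 (adjusted p = 0.126) between brown and white nuclei were lost, with Prdm16 over endothelial nuclei (0.0534). That Prdm16 call was also lost with no minimum count (0.208), without doublets (0.0771), with a fat marker sum of at least 6 (0.0824), with a marker difference of at least 3 (0.0741) and with a fat marker sum above the other classes' (0.112), where its log2 fold change was 0.18 to 0.27. Of the recomputed log2 fold changes of the 10 genes, 488 kept their direction and any call they could carry, and these 8 lost the call. Another 32, all from 1 library alone and without a test, moved by more than the SE of the fit. Among the 488, 22 from the Male and 24 from the Female library alone also had no test, and lay within that SE. No fold change of the 10 genes reversed. Within 1 library, without a test, Ppargc1a in brown over white nuclei ran from 0.66 to 1.35 and Dio2 from 0.36 to 0.41.

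Scaled to all nuclei of a library instead of the class, 4 Female to Male ratios reversed: Dio2 (1.02) and Slc27a2 (1.04) in brown nuclei, Cidea (0.817) and Ppargc1a (0.959) in white nuclei. That scaling follows the number of nuclei of the class, and put 3025 genes 2-fold apart in white nuclei, against 558. At a minimum of 200 UMIs, 194 genes were 2-fold apart in brown nuclei, against 572, and 202 in white nuclei; fewer genes were then counted. With the 4 brown and white sums alone, 1577 genes were called lower in brown, against 1034, and the cause was not tested. Of the shares of nuclei, 152 moved, 96 of them on thinning. Depth limits Elovl3 in all 5 classes, on 0 to 142 UMIs per class and library. It also limits Ucp1 and Slc27a2 in white nuclei, on 17 to 22 UMIs each.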
